A study of Mus musculus with 8 samples.

Results

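Glucose transporters and enzymes of glycolysis were followed across genotypes, embryonic stages and cell groups of mouse chimaeras. The 10 genes were chosen by name and are Slc2a1 and Slc2a3, which encode the glucose transporters GLUT1 and GLUT3, and the enzyme genes Hk2, Gpi1, Pfkl, Aldoa, Pgk1, Eno1, Pkm and Ldha. They account for 11 of the 55422 features in the count matrices, because Aldoa is listed under 2 gene identifiers. Glycolysis splits glucose into pyruvate with a net gain of ATP, and lactate dehydrogenase turns the pyruvate into lactate, which regenerates the NAD+ that the pathway consumes. Before the placental circulation is established, embryos of many mammals lean on glucose uptake and lactate production, and the pathway stays active in proliferating embryonic tissue. Hypoxia-inducible factors and MYC proteins are well known activators of many of these genes.

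The chimaeras were made by injecting Tet-TKO embryonic stem cells (ESCs), which lack working Tet1, Tet2 and Tet3 genes, into wild-type C57BL/6J blastocysts, 12 cells each. TET enzymes oxidise methylated cytosine. The ESC line had a C57BL/6J-129Sv background and carried a CAG-driven H2B-tdTomato label, and the blastocysts were carried by CD1 recipients. Embryos were pooled, dissociated and sorted into tdTomato-positive cells (Tet-TKO) and tdTomato-negative cells (WT host) for 10x 3′ single-cell RNA-seq. At embryonic day E7.5 each genotype had 1 library. At E8.5, 4 libraries came from Tet-TKO cells and 2 from WT host cells. Genotype, ESC strain background, passage through culture and the label differ together between the groups, so their parts cannot be told apart. The labels do not say whether the libraries of a group came from separate pools of embryos, so p-values measure only the spread between these libraries, which may be technical.

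Libraries kept between 1012 and 9552 cells and between 65082949 and 136773098 unique molecular identifiers (UMIs, counted molecules). The tdTomato transcript stood at 71.5 to 144 CPM (counts scaled to a constant total of UMIs per library) in the Tet-TKO libraries and at 0.444 to 0.938 CPM in the WT host libraries, which checks the sort. Tet1 at E8.5 was read at 9.93 to 20.9 CPM in Tet-TKO and at 20.4 to 22.5 CPM in WT host cells, Tet2 at 5.55 to 10.5 against 4.63 to 4.67 CPM and Tet3 at 22.5 to 37.5 against 23.1 to 23.2 CPM, but 3′ tags outside the deleted part of a gene do not check a knockout. At E8.5 the Tet-TKO libraries formed pairs, 1 with 2 and 3 with 4. Libraries 3 and 4 held 2304 and 1012 cells at a median of 40386.5 and 68704 UMIs per cell, against 7045 and 9552 cells at 18763 and 12176 UMIs in libraries 1 and 2. The profiles of libraries 1 and 2 differed by a chi-square of 15.5 per degree of freedom and those of 3 and 4 by 18.7, against 141 for the WT host pair. Several of the genes described here moved with this split, so values are given for each library and again without libraries 3 and 4. Cells were clustered without the 10 genes, and clusters were grouped into classes. A class is called "-like" where at least 3 markers of a cell type were raised and further rules, given under processing, were met. Other clusters keep their number, so clusters 3 and 39 are unnamed although 7 and 6 markers of a cell type were raised there. In E8.5, 31 classes with 96.7% of the cells could be compared, and 19 of them were named. All markers of each named class among them were detected in both genotypes.

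The members lie on 6 chromosomes of the GRCm38 assembly, and all are annotated as protein-coding. Hypoxia-inducible factors bind DNA at a short core that reads ACGTG or GCGTG. Promoter sequence upstream of the annotated start was taken from RefSeq (GRCm38.p6), which had an entry for 9 of the 10 genes. Of their 15 listed promoters, 12 held ACGTG or GCGTG on either strand within the 250 bases before the start, as did 38.6% of 32851 promoters of that length. Such short matches are common and are given only as a description. The promoters of Slc2a1, Pgk1 and Ldha are printed because they show a single match, a pair and a cluster of matches in genes that act at the entry, in the middle and at the end of the pathway. Capitals mark ACGTG and GCGTG or their reverse complements CACGT and CACGC, and all 3 sequences are on the plus strand, chr4:119108495-119108710 for Slc2a1, chrX:106186850-106187099 for Pgk1 and chr7:46845554-46845803 for Ldha. The Slc2a1 and Pgk1 stretches end where the GENCODE genes begin, whereas that of Ldha lies inside its GENCODE interval, before a RefSeq start further downstream.
Slc2a1: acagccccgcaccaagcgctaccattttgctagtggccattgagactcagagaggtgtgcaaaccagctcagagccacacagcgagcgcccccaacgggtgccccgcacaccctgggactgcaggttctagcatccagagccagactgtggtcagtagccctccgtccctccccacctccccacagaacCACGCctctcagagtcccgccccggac
Pgk1: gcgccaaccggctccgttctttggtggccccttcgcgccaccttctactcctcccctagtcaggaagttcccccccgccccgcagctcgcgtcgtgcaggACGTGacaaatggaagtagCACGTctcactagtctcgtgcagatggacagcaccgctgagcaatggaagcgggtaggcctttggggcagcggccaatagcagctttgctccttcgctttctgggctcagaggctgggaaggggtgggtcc
Ldha: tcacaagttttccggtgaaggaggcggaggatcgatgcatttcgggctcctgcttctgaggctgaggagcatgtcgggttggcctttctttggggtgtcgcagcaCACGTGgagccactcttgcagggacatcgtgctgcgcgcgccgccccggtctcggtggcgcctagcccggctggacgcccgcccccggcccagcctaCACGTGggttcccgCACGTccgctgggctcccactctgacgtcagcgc
The Slc2a1 stretch of 216 bases held 1 match. The Pgk1 stretch held 2 matches in opposite directions. The Ldha stretch held 5 matches at 3 places, because CACGTG reads as a match on both strands. The 3 stretches held 10, 17 and 25 CpG dinucleotides, the substrate of DNA methylation, against a median of 6 in all promoters.

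In WT host cells of E8.5, the transporters varied far more between cell classes than the enzymes did. The range is described over 34 classes with at least 10 cells in both host libraries, as CPM summed per class and library, and with no test, because classes are groups of cells and not replicates. Counts at the 3′ end were not divided by length and are not compared between genes. Slc2a1 (chromosome 4, 119108711-119137983, plus strand), the basal glucose transporter of most cells, ranged from 2143 CPM in mesenchyme-like cells to 151 CPM in blood progenitor-like cells, a 14.2-fold range. Its level in the mesenchyme-like class was 2089 CPM in WT host 1 and 2198 CPM in WT host 2. The next classes in order were cluster 56, with 1213 and 1348 CPM a group of 13 and 11 host cells led by Postn and Prss35, with Hbb-bh0 among its top genes and a median depth 2.06 times that of the library, and surface ectoderm-like cells with 1096 and 964 CPM. Of the 33 steps in this order, 7 were larger than the gap between the host libraries allows, so most neighbouring classes did not differ beyond their spread.

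Slc2a3 (chromosome 6, 122727809-122801640, minus strand), a transporter of high glucose affinity, had a 55.6-fold range. It was highest in visceral and yolk sac endoderm-like cells, with 1512 and 1528 CPM in the host libraries. Surface ectoderm-like cells followed with 1038 and 1189 CPM, and gut-like cells with 1284 and 937 CPM. Within the surface ectoderm-like class, Slc2a3 was at 1954 and 2510 CPM in cluster 27, with 19.9% and 16.4% of the cells, at 1144 and 1364 CPM in cluster 17 and at 634 and 735 CPM in cluster 11. Slc2a1 was at 2929 and 3097 CPM in cluster 27, above the mesenchyme-like class. The lowest Slc2a3 level was in cluster 3, whose leading genes include Hbb-bh0, of developing red cells, and Cited4, with 28.3 and 26.4 CPM. Presomitic mesoderm-like cells were also low, with 44.6 and 48.7 CPM. For Slc2a3, 11 of the 33 neighbouring steps exceeded the gap between libraries. Levels of Slc2a1 and Slc2a3 rose together over the 34 classes (Pearson r = 0.70 of log2 levels), and Slc2a1 and Pkm hardly did (r = 0.22). The same 2 libraries and the same class sums lie behind every such value.

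**Figure D1:**
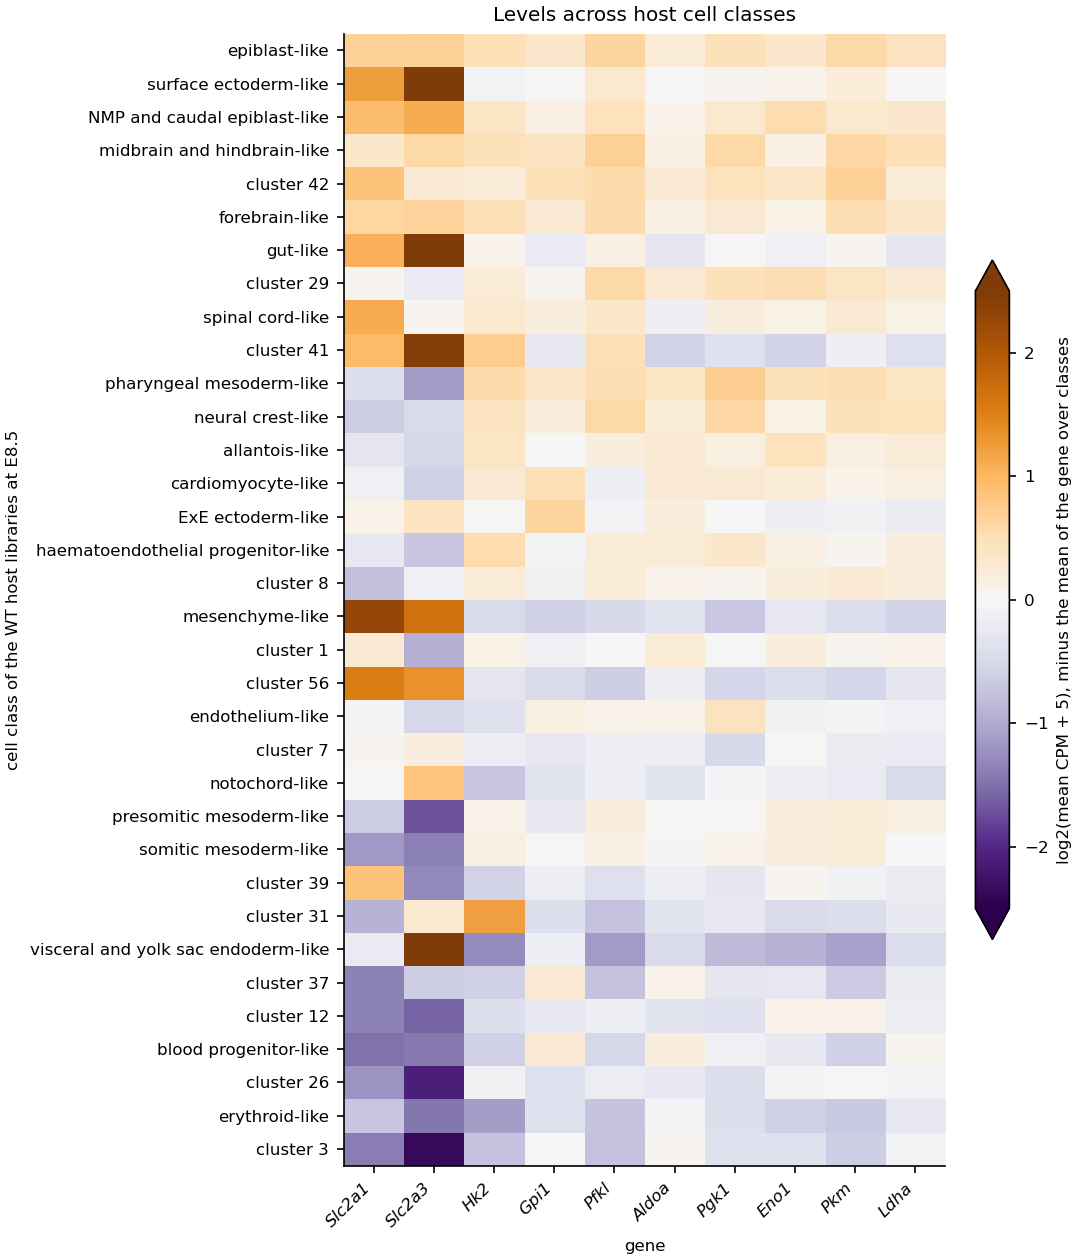
Heat map of the 10 genes in 34 WT host classes of E8.5, as log2(mean CPM of 2 libraries + 5) minus each gene's mean over classes. Slc2a1 is highest in mesenchyme-like cells and Slc2a3 in visceral and yolk sac endoderm-like cells, while the enzymes span narrower ranges.

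The enzymes had narrow ranges, from 1.95-fold for Aldoa to 6.67-fold for Hk2, and peaked in several different classes. Hk2 (chromosome 6, 82725025-82774454, minus strand), the hexokinase that traps glucose as glucose-6-phosphate, was highest in the low-UMI cluster 31, with 134 and 186 CPM, and then in pharyngeal mesoderm-like cells with 93.0 and 104 CPM. Gpi1 (chromosome 7, 34201330-34230336, minus strand), the isomerase that makes fructose-6-phosphate, was high in ExE ectoderm-like cells (512 and 496 CPM) and in cardiomyocyte-like cells (449 and 460 CPM). Pfkl (chromosome 10, 77986947-78010083, minus strand), a phosphofructokinase subunit for the committed step, was highest in midbrain and hindbrain-like cells, with 408 and 386 CPM. The order of Gpi1 held 1 step larger than the gap between libraries, so it separates few classes.

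Aldoa (chromosome 7, 126795234-126800751, minus strand), the aldolase that cleaves the phosphorylated hexose, reached 1752 and 1771 CPM in pharyngeal mesoderm-like cells. A second Aldoa identifier had 5 to 15 UMIs per E8.5 library and was left aside. Pgk1 (chromosome X, 106187100-106203699, plus strand), a kinase that yields ATP, was highest in the same class with 2214 and 2246 CPM. Eno1 (chromosome 4, 150236721-150248879, plus strand), enolase, was highest in neuromesodermal progenitor (NMP) and caudal epiblast-like cells, with 2022 and 1846 CPM. Its near copy Eno1b took 15.1 to 31.7 CPM per library, and reads could have been split between them.

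Pkm (chromosome 9, 59656368-59679375, plus strand), the pyruvate kinase that makes pyruvate and ATP, was highest in cluster 42, a class led by Calca, Nkx6-1 and Foxa2, with 3546 and 3678 CPM. Midbrain and hindbrain-like cells had 3571 and 3305 CPM of Pkm, and visceral and yolk sac endoderm-like cells were lowest with 1088 and 1061 CPM. Its spliced forms PKM1 and PKM2 cannot be separated by 3′ counts. Ldha (chromosome 7, 46841475-46855627, plus strand), lactate dehydrogenase A, was highest in midbrain and hindbrain-like cells with 4893 and 4618 CPM, and lowest in mesenchyme-like cells with 2517 and 2077 CPM. Mesenchyme-like cells thus held the highest Slc2a1 and the lowest Ldha and Gpi1 levels of the 34 classes. Over the classes, Pkm followed Pfkl (r = 0.94), Eno1 (r = 0.87) and Pgk1 (r = 0.84), and Slc2a3 had r = -0.06 with Pkm.

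Over whole E8.5 libraries, Pkm was the only member called between the genotypes. Pkm was at 1711, 1676, 1611 and 1665 CPM in Tet-TKO libraries 1 to 4 and at 2223 and 2150 CPM in the WT host libraries. All Tet-TKO libraries lay below both host libraries. Divided by TMM factors, the kind of scaling that edgeR applies, Tet-TKO libraries 1 to 4 were at 1793, 1754, 1466 and 1456 CPM and the host at 2261 and 2247 CPM, with libraries 3 and 4 lowest. Other CPM values are not scaled in this way unless stated. The mean fell from 2187 ± 52.0 CPM (SD, n = 2) to 1666 ± 41.5 CPM (SD, n = 4), a log2 fold change of -0.47 ± 0.11 (SE) with an adjusted p = 0.0459 in edgeR's quasi-likelihood test (Benjamini-Hochberg over 21075 genes). Pkm was 1 of 10 members called at an adjusted p of 0.05, where 10.5% of all genes tested were called, 6.75% lower in Tet-TKO and 3.74% higher. At the stricter rule of the study (adjusted p 0.01 and log2 fold 1), 0 members and 2.65% of all genes were called. The call sat close to the threshold. It was lost in 9 of 16 alternative settings (log2 fold change -0.57 to -0.36), including each of the 6 that left out a single library, where the edgeR adjusted p was 0.0561, 0.0758, 0.0936 and 0.0801 without Tet-TKO 1 to 4, 0.314 without WT host 1 and 0.245 without WT host 2. In whole libraries, fewer cells of a type and less RNA per cell cannot be told apart.

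**Figure D2:**
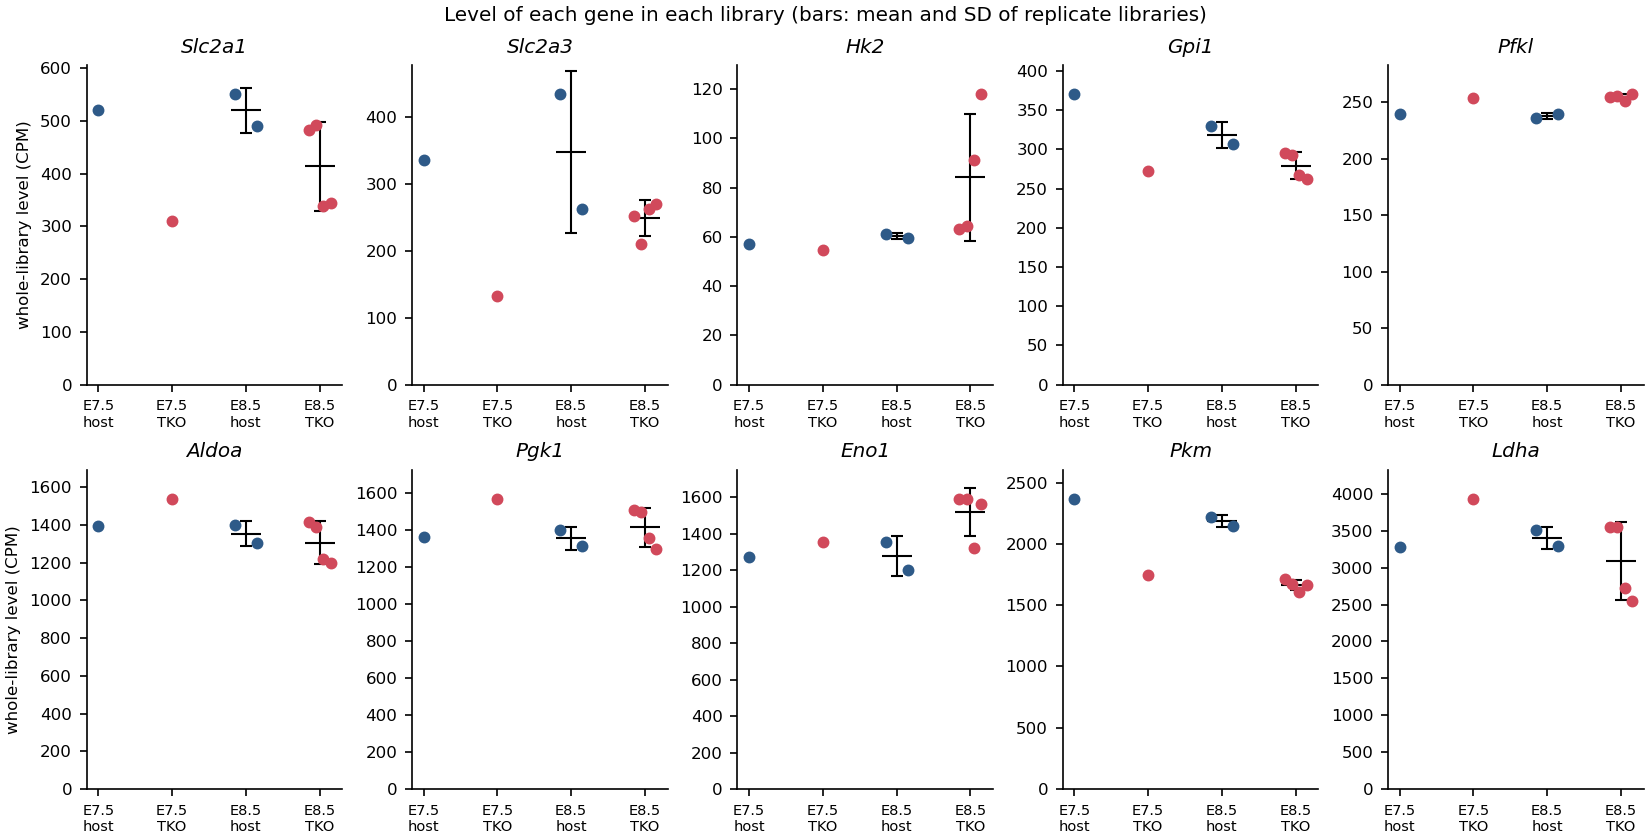
CPM of each gene in every whole library, by stage and genotype, with group means and SD bars where a group has more than 1 library; each panel starts at 0. Pkm is the gene in which the 4 Tet-TKO libraries of E8.5 (1611 to 1711 CPM) lie clearly below both WT host libraries (2150 and 2223 CPM).

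The transporters were lower on average in Tet-TKO but did not pass the test. Slc2a1 was at 482, 491, 339 and 344 CPM in Tet-TKO and at 550 and 490 CPM in WT host. Libraries 3 and 4 were low, while libraries 1 and 2 overlapped with the host, and the log2 fold change was -0.39 ± 0.24 (SE; edgeR adjusted p = 0.339). Slc2a3 was at 251, 209, 263 and 269 CPM in Tet-TKO and at 433 and 262 CPM in WT host. The host libraries were themselves far apart, and the log2 fold change of -0.57 ± 0.19 (SE) missed the threshold (edgeR adjusted p = 0.105). Without WT host 2 it was -0.88 (adjusted p = 0.0354), and without WT host 1 it was -0.20 (adjusted p = 0.620), so a single host library decided this value.

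Among the other enzymes, Gpi1 was lower in all Tet-TKO libraries (296, 292, 267 and 262 CPM) than in the host libraries (330 and 307 CPM). Hk2 was higher in all of them, with 63.0, 64.5, 91.1 and 118 CPM against 61.3 and 59.6 CPM. Pfkl also lay above the host in all Tet-TKO libraries, at 251 to 257 against 236 and 240 CPM. With TMM scaling Pfkl overlapped, at 225 to 267 against 240 and 251 CPM, while Gpi1 and Hk2 stayed apart and Slc2a3 also lay below the host, at 219 to 263 against 441 and 274 CPM. In unscaled CPM, groups did not overlap for 17.9% of all genes with Tet-TKO below and for 23.1% with Tet-TKO above, and none of the 3 genes passed the edgeR test (adjusted p = 0.263 for Gpi1, 0.310 for Hk2 and 0.943 for Pfkl). Aldoa, Pgk1, Eno1 and Ldha overlapped between the genotypes, with log2 fold changes between -0.20 and 0.17. Ldha was at 3546 and 3556 CPM in Tet-TKO libraries 1 and 2, at 2728 and 2554 CPM in libraries 3 and 4, and at 3507 and 3296 CPM in the host. Its low values thus came from libraries 3 and 4.

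The median log2 fold change of the 10 members was -0.16, against 0.02 over all genes, and 7 of 10 were below 0 against 48.1% of all genes. Without libraries 3 and 4, where 22.2% of all genes were called, Pkm stayed lower (log2 fold change -0.36, edgeR adjusted p = 0.00755), while Pgk1 (0.16, adjusted p = 0.0420) and Eno1 (0.33, adjusted p = 0.0216) were called higher. The direction of Pgk1 thus turned with those libraries, as did those of Aldoa and Ldha, which were not called in either fit.

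Within cell classes, Pkm was lower in Tet-TKO in 31 of 31 classes. Its log2 fold changes lay between -0.89 and -0.18 around a median of -0.54. All Tet-TKO libraries lay below both host libraries in 28 of the 31, whereas this held for 13.1% of all gene and class pairs. Of 2701 genes that could be tested in every class, 2.18% were lower in each one. The edgeR test called Pkm in 8 classes. Over all members, 13 of 310 gene and class pairs were called, 12 lower and 1 higher, where 1.5% of all 294630 gene and class tests were called, 0.885% lower and 0.614% higher. At the rule of the study, 4 pairs and 0.548% of all tests were called. These calls were adjusted within each class. Adjusted over the tests of all classes together, Pkm in cluster 8 (edgeR adjusted p = 0.0551) and Slc2a3 in cluster 3 (0.0784) were not called.

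Of the Pkm calls, the lowest p was in endothelium-like cells (markers Cdh5 and Emcn), with 1232, 1178, 1246 and 1436 CPM in Tet-TKO and 2059 and 2265 CPM in WT host, a log2 fold change of -0.75 ± 0.12 (SE; edgeR adjusted p = 0.00960). Surface ectoderm-like cells had 1741, 1697, 1692 and 1650 CPM against 2670 and 2661 CPM (-0.64 ± 0.10, adjusted p = 0.0249). In both, all Tet-TKO libraries were below the host. The surface ectoderm-like class joined clusters 11, 17 and 27, and 37.8%, 31.8%, 1.91% and 6.56% of the cells of Tet-TKO 1 to 4 lay in cluster 27, against 19.9% and 16.4% of host cells. Inside the clusters the Pkm difference was -0.59 (edgeR adjusted p = 0.0917) in cluster 11, -0.61 (0.128) in cluster 17 and -0.34 (0.0353) in cluster 27, where libraries 3 and 4 had fewer than 10 cells and were left out and 7.83% of all genes were called. Haematoendothelial progenitor-like cells had 1615, 1531, 1297 and 1350 CPM against 2523 and 2256 CPM (-0.73 ± 0.15, adjusted p = 0.0355). Cluster 39, led by Mab21l2 and Wnt2, had 1344, 1294, 1151 and 1046 CPM against 2244 and 2005 CPM (-0.85 ± 0.18, adjusted p = 0.0391). Libraries 3 and 4 were the lowest in these 2 classes, and libraries 1 and 2 were also below the host.

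Cardiomyocyte-like cells had 1655, 1603, 1600 and 1540 CPM of Pkm against 2494 and 2398 CPM (log2 fold change -0.65 ± 0.13 SE, edgeR adjusted p = 0.0425). That class joined clusters 34 and 36, inside which the Pkm difference was -0.62 (edgeR adjusted p = 0.0534) and -0.66 (0.0548). Spinal cord-like cells had 1868, 1867, 1883 and 1903 CPM against 2777 and 2759 CPM (-0.54 ± 0.10, adjusted p = 0.0441). Epiblast-like cells, where Tet-TKO 4 had fewer than 10 cells and was left out, had 2280, 2480 and 2359 CPM against 3329 and 3453 CPM (-0.48 ± 0.10, adjusted p = 0.0442), and the call was kept in cluster 32 alone (-0.49, adjusted p = 0.0336), where 1.01% of all genes were called. The Tet-TKO 3 value there came from 10 cells. Cluster 8, led by Cdx4 and Hoxb9, had 1951, 1888, 1947 and 1923 CPM against 2754 and 2702 CPM (-0.49 ± 0.10, adjusted p = 0.0460). In these 8 classes, in the order given, 1.24%, 0.8%, 1.36%, 0.839%, 1.18%, 0.579%, 0.436% and 1.05% of all genes were called lower. The smallest difference was in notochord-like cells, with 1638, 1940 and 1374 CPM against 1993 and 1932 CPM, where the groups overlapped (-0.18, adjusted p = 0.827). Leaving out Tet-TKO 1, 2 or 3 kept 4, 3 and 2 of the 8 Pkm calls, and leaving out Tet-TKO 4 kept 4 of the 7 that included it. Leaving out WT host 1 or WT host 2 kept 0 of the 8 (lowest edgeR adjusted p = 0.186 and 0.199), with log2 fold changes still between -0.95 and -0.46. Without libraries 3 and 4, Pkm was again lower in 31 of 31 classes, with a median of -0.46, and all 8 calls were kept. That fit called 6.37% of all gene and class tests, against 1.5% with all libraries, so kept calls add little.

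**Figure D3:**
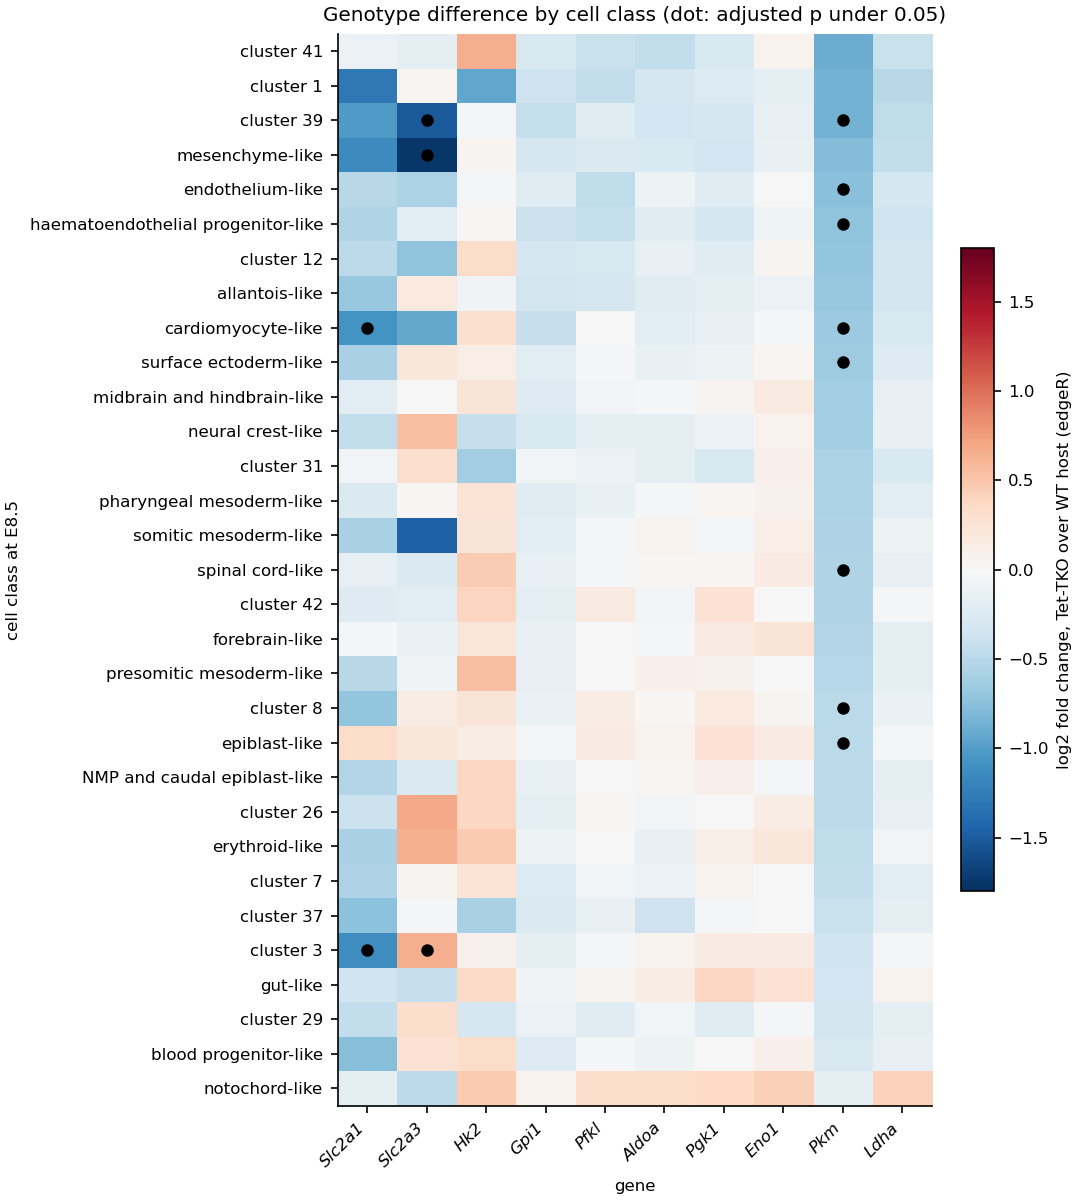
Heat map of the log2 fold change (Tet-TKO minus WT host, edgeR) of each gene in 31 classes of E8.5, with a black dot where the adjusted p was under 0.05. The Pkm column is below 0 in all 31 classes, and 12 of the 13 dots mark lower values in Tet-TKO.

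Slc2a1 was lower in Tet-TKO in 30 of 31 classes (median log2 fold change -0.50), and 5.81% of genes tested in every class were lower in all or all but 1 of them. Cardiomyocyte-like cells had 185, 211, 205 and 191 CPM in Tet-TKO and 411 and 401 CPM in WT host, a log2 fold change of -1.07 ± 0.13 (SE; edgeR adjusted p = 0.00305). All 4 Tet-TKO libraries lay close together here and well below both host libraries. Between 43.4% and 69.1% of these cells lay in cluster 34 for Tet-TKO, and 59.1% and 54.8% for the host. The Slc2a1 difference was -1.20 (edgeR adjusted p = 0.00119) inside it, where 2.18% of all genes were called, and -0.71 (0.189) inside cluster 36. Cluster 3 had 99.9, 86.2 and 53.4 CPM against 160 and 164 CPM (-1.11 ± 0.20, adjusted p = 0.00990), a class in which 2.28% of all genes were called lower. These sums came from 25, 100 and 20 cells of Tet-TKO 1 to 3 and from 635 and 480 host cells. The call in cardiomyocyte-like cells was lost when either host library was left out (edgeR adjusted p = 0.0868 without WT host 1 and 0.0783 without WT host 2), and both calls were kept without Tet-TKO 1, 2 or 3 and without libraries 3 and 4 together. Without Tet-TKO 4, which cluster 3 did not include, the cardiomyocyte-like call was kept. The fit without libraries 3 and 4 called 6.37% of all gene and class tests, against 1.5% with all libraries.

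The class with the most Slc2a1, mesenchyme-like cells, had 1186, 1317, 785 and 687 CPM in Tet-TKO against 2089 and 2198 CPM (log2 fold change -1.14, edgeR adjusted p = 0.0695). All Tet-TKO libraries were below the host there, although the test was not passed. The class joins clusters 6 and 19, between which the genotypes were placed unequally, and inside them the differences were -0.92 (edgeR adjusted p = 0.293) and -1.17 (0.0562). Surface ectoderm-like cells had 924 and 884 CPM in libraries 1 and 2, 421 and 448 CPM in libraries 3 and 4, and 1096 and 964 CPM in the host (-0.59, adjusted p = 0.566). This class sum mixes its 3 clusters in unequal shares. Inside cluster 27, Slc2a1 was at 1535 and 1632 CPM in libraries 1 and 2 against 2929 and 3097 CPM in the host, and was called lower (-0.88 ± 0.10, edgeR adjusted p = 1.34e-07, 2 libraries against 2). In that fit 7.83% of all genes were called. Libraries 1 and 2 are the pair with the closest profiles, so the p-value may measure technical spread only. In cluster 11 the difference was -0.20 (edgeR adjusted p = 0.822) and in cluster 17 it was -0.46 (0.462). Epiblast-like cells were the exception to the direction, with 752, 898 and 939 CPM against 713 and 681 CPM (0.33, adjusted p = 0.527). Without libraries 3 and 4, Slc2a1 was lower in 23 of 31 classes, with a median of -0.16, so much of its breadth over classes rested on those libraries.

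Slc2a3 was called lower in 2 classes and higher in 1. Its log2 fold changes, 16 below and 15 above 0, ran from -1.76 to 0.68, and 28 of the 31 did not pass the test. In mesenchyme-like cells it was at 189, 191, 163 and 112 CPM in Tet-TKO and at 490 and 591 CPM in WT host, a log2 fold change of -1.76 ± 0.23 (SE; edgeR adjusted p = 0.00489), where 2.6% of all genes were called lower. This class joined clusters 6 and 19, and Tet-TKO libraries placed 65.2% to 80.4% of its cells in cluster 6 while the host libraries placed 68.3% and 70.4% in cluster 19. Inside cluster 19 the values were 358, 362, 453 and 184 CPM against 644 and 779 CPM (-1.09, adjusted p = 0.0523). Inside cluster 6 they were 140, 109, 85.0 and 87.0 CPM against 183 and 129 CPM (-0.60, adjusted p = 0.524), so the class value was larger in size than that of either cluster.

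Cluster 39 had 23.7, 25.6, 23.4 and 18.5 CPM of Slc2a3 in Tet-TKO and 56.7 and 70.8 CPM in WT host (log2 fold change -1.51 ± 0.23 SE, edgeR adjusted p = 0.00721). In cluster 3, where Slc2a3 was lowest in the host, it was higher in Tet-TKO, at 53.7, 43.6 and 41.6 CPM against 28.3 and 26.4 CPM (0.65 ± 0.15, adjusted p = 0.0346), as were 2.66% of all genes. The Tet-TKO values of cluster 3 came from 25, 100 and 20 cells. The groups did not overlap in either class, and all Tet-TKO libraries lay above the host in 10.7% of all gene and class pairs. The call in mesenchyme-like cells was lost without WT host 2 (adjusted p = 0.123) and that in cluster 39 without WT host 1 (0.107) or WT host 2 (0.173). The call in cluster 3 was lost without Tet-TKO 1 (0.114), Tet-TKO 2 (0.122), WT host 1 (0.440) or WT host 2 (0.585). Without libraries 3 and 4, all 3 were kept, in a fit that called 6.37% of all gene and class tests. In surface ectoderm-like cells, one of the classes richest in Slc2a3, the values overlapped, with 1120, 1065, 1352 and 1584 CPM against 1038 and 1189 CPM (0.20, adjusted p = 0.619). Inside its cluster 27, however, libraries 1 and 2 had 1628 and 1664 CPM against 1954 and 2510 CPM, and Slc2a3 was called lower (-0.38, edgeR adjusted p = 0.0196), where 7.83% of all genes were called. In cluster 17 it was at 1015, 1040, 1732 and 1844 CPM against 1144 and 1364 CPM (0.16, adjusted p = 0.822). Gut-like cells had 910, 745, 782 and 786 CPM against 1284 and 937 CPM, all lower but not called (-0.41, adjusted p = 0.297). This class joined 5 clusters, and Slc2a3 was called lower in cluster 28 (-0.80, edgeR adjusted p = 0.00753), where Tet-TKO 4 had fewer than 10 cells and 2.64% of all genes were called.

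**Figure D4:**
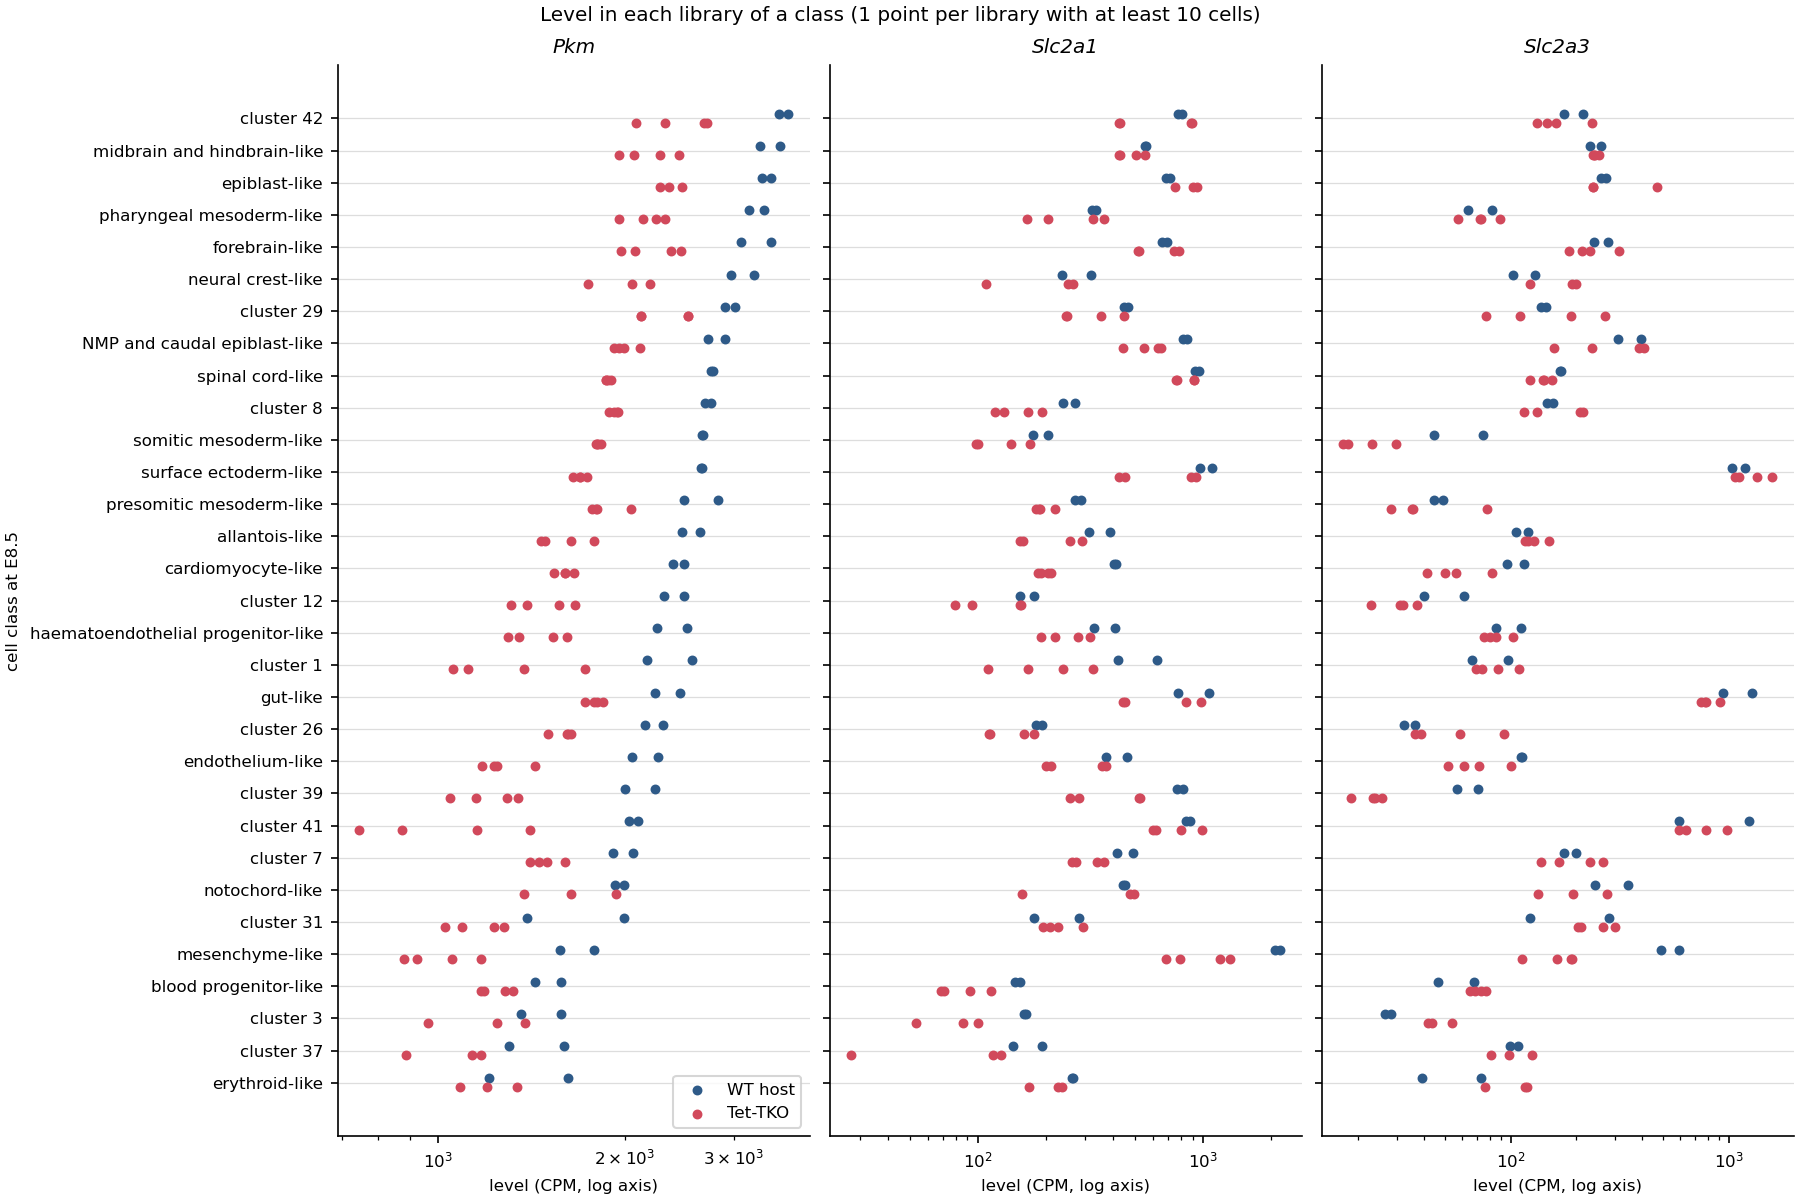
CPM of Pkm, Slc2a1 and Slc2a3 per library in 31 classes of E8.5 on a log axis, with WT host libraries in blue and Tet-TKO libraries in red. Pkm points of Tet-TKO lie below both host points in 28 classes, while the side of the Slc2a3 points differs between classes, most of which did not pass the test.

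Of the other 7 enzymes, none was called in any of the 31 classes by edgeR or by DESeq2, and 9 of their 217 gene and class pairs had an unadjusted p under 0.05. In single clusters in place of classes, Pgk1 was called higher in 2 of 43 and the other 6 enzymes in 0. These were cluster 38 of the NMP and caudal epiblast-like class (log2 fold change 0.20, edgeR adjusted p = 0.0470), without Tet-TKO 3 and 4, which had fewer than 10 cells, where 4.73% of all genes were called, and cluster 40 of the gut-like class (0.68, adjusted p = 0.0390), without Tet-TKO 4 for the same reason, where 1.06% were. Gpi1 was below 0 in 30 classes (median log2 fold change -0.20) and Ldha in 29 (median -0.17). Hk2 was above 0 in 23 classes (median 0.23) and Eno1 in 21 (median 0.06). Without libraries 3 and 4, Gpi1 was below 0 in 24 classes and Hk2 in 18 (median -0.07), Eno1 was above 0 in 31 of 31 (median 0.20, where 2.74% of genes were so in the fit with all libraries), and Ldha was below 0 in only 10 (median 0.04). For Hk2 and Ldha the balance of directions thus turned with those libraries, while that of Gpi1 and Eno1 did not.

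Markers of red cells moved with genotype in the classes that held a call. In the 9 of these classes other than cluster 3, the summed level of 8 erythroid markers was 440 to 5686 CPM in WT host and 3.95 to 289 CPM in Tet-TKO libraries, where between 1 and 6 of the 8 markers were at 0. In cluster 3 they were at 64398 to 81046 CPM in WT host and 39776 to 63599 CPM in Tet-TKO. Visceral and yolk sac endoderm markers (7 genes) summed to 8.32 to 46.3 CPM in the host and to at most 12.5 CPM in Tet-TKO, and the ranges of 6 extraembryonic (ExE) ectoderm markers overlapped, from 0 to 44.6 and from 0 to 50.9 CPM. The part of these markers in the results was not tested. Pkm in host erythroid-like cells was 1622 and 1210 CPM, below the host level in each class in which Pkm was called lower. The bearing of this level on the Pkm calls was not tested.

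Giving each class the same weight removed the share of cells per class from the comparison. Classes with fewer than 10 cells in a library were left out. Erythroid-like, visceral and yolk sac endoderm-like and ExE ectoderm-like cells and cluster 3 were among them. Over 25 classes present in all libraries, the mean log2(CPM + 5) of Pkm was 10.74, 10.70, 10.61 and 10.60 in Tet-TKO and 11.29 and 11.23 in WT host. The groups did not overlap, and the difference of -0.60 ± 0.05 (SE) was the only one of a member called by limma (adjusted p = 0.0177, lost without Tet-TKO 2, 3 or 4, at 0.0630, 0.0657 and 0.0528, or without WT host 1 or 2, at 0.146 and 0.147), where 1.49% of all genes were called, 1.07% lower and 0.418% higher. Slc2a1 was at 8.55, 8.58, 8.01 and 8.00 against 8.92 and 8.79, a difference of -0.57 ± 0.22 (adjusted p = 0.355), with libraries 3 and 4 lowest. Slc2a3 was at 7.05, 7.06, 7.08 and 7.02 against 7.42 and 7.22, a difference of -0.26 ± 0.06 (adjusted p = 0.135). Here its 4 Tet-TKO values lay close together below both host values. The median over the members was -0.18, against 0.00 over all genes.

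Whether a difference in a class was unlike that in the other classes was tested separately. None of 250 gene and class pairs was called by limma, where 0.0655% of all such tests were, and 28 pairs (11.2%) had an unadjusted p under 0.05 against 8.89% of all. The nearest was Slc2a3 in mesenchyme-like cells, whose log2 difference was -1.51 ± 0.25 (SE) relative to the mean of the other classes (adjusted p = 0.0586). Slc2a1 in the same class had -0.61 (adjusted p = 0.0756).

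At E7.5, with 1 library per genotype, there is no test, and the 95% intervals are exact and cover counting error only. Whole-library Pkm was 1750 CPM in Tet-TKO and 2370 CPM in WT host, a ratio of 0.738 (0.734 to 0.743). It was below 1 in 25 of 25 classes, between 0.591 and 0.939, and the interval excluded 1 in 24 of them. Of 9211 genes with at least 1000 UMIs, 0.651% were lower in every class. The exception was visceral and yolk sac endoderm-like cells, with 1321 against 1407 CPM of Pkm and a ratio of 0.939 (0.843 to 1.04). Among the 25 classes, tdTomato was detected in few Tet-TKO cells of cluster 34 (11.5%), myeloid-like cells (19.5%) and cluster 1 (33.2%). It was detected in 61.2% of the whole library. These cells had medians of 2214.5, 2739 and 6097 UMIs, so missed tags and unlabelled cells cannot be told apart there.

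Both transporters were also lower in the E7.5 Tet-TKO library. Whole-library Slc2a1 was 309 against 521 CPM, a ratio of 0.594 (0.586 to 0.602), and Slc2a3 was 133 against 335 CPM, a ratio of 0.396 (0.388 to 0.404). These were the 2 members at least 1.5-fold lower, as were 4.26% of 19099 genes, and no member was 1.5-fold higher, as were 1.48%. By any amount, 5 of 10 members were lower, against 59.4% of genes. Slc2a1 was lower in 24 of 25 classes, with a median ratio of 0.700 and a lowest one of 0.435 in cluster 32 of E7.5. In surface ectoderm-like cells it had 471 against 975 CPM, a ratio of 0.483. Slc2a3 was lower in 23 of 25 classes, with a median ratio of 0.690. In gut-like cells Slc2a3 had 476 against 1151 CPM, a ratio of 0.414 (0.383 to 0.446).

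The E7.5 Tet-TKO library held few visceral and yolk sac endoderm-like cells. There were 56 of them with a median of 4110 UMIs, against 13230 in the host, and tdTomato was detected in 17.9% against 61.2% in the whole library. Slc2a3 stood at 421 CPM (348 to 505) there and at 1390 CPM (1359 to 1422) in the 425 WT host cells of that class, where it was highest at E8.5 too. Of the cells of this class, 83.9% lay in cluster 29 of E7.5 in Tet-TKO and 19.5% in WT host. In ExE mesoderm-like cells, Slc2a3 was level between genotypes, 262 against 260 CPM, a ratio of 1.01 (0.921 to 1.11).

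**Figure D5:**
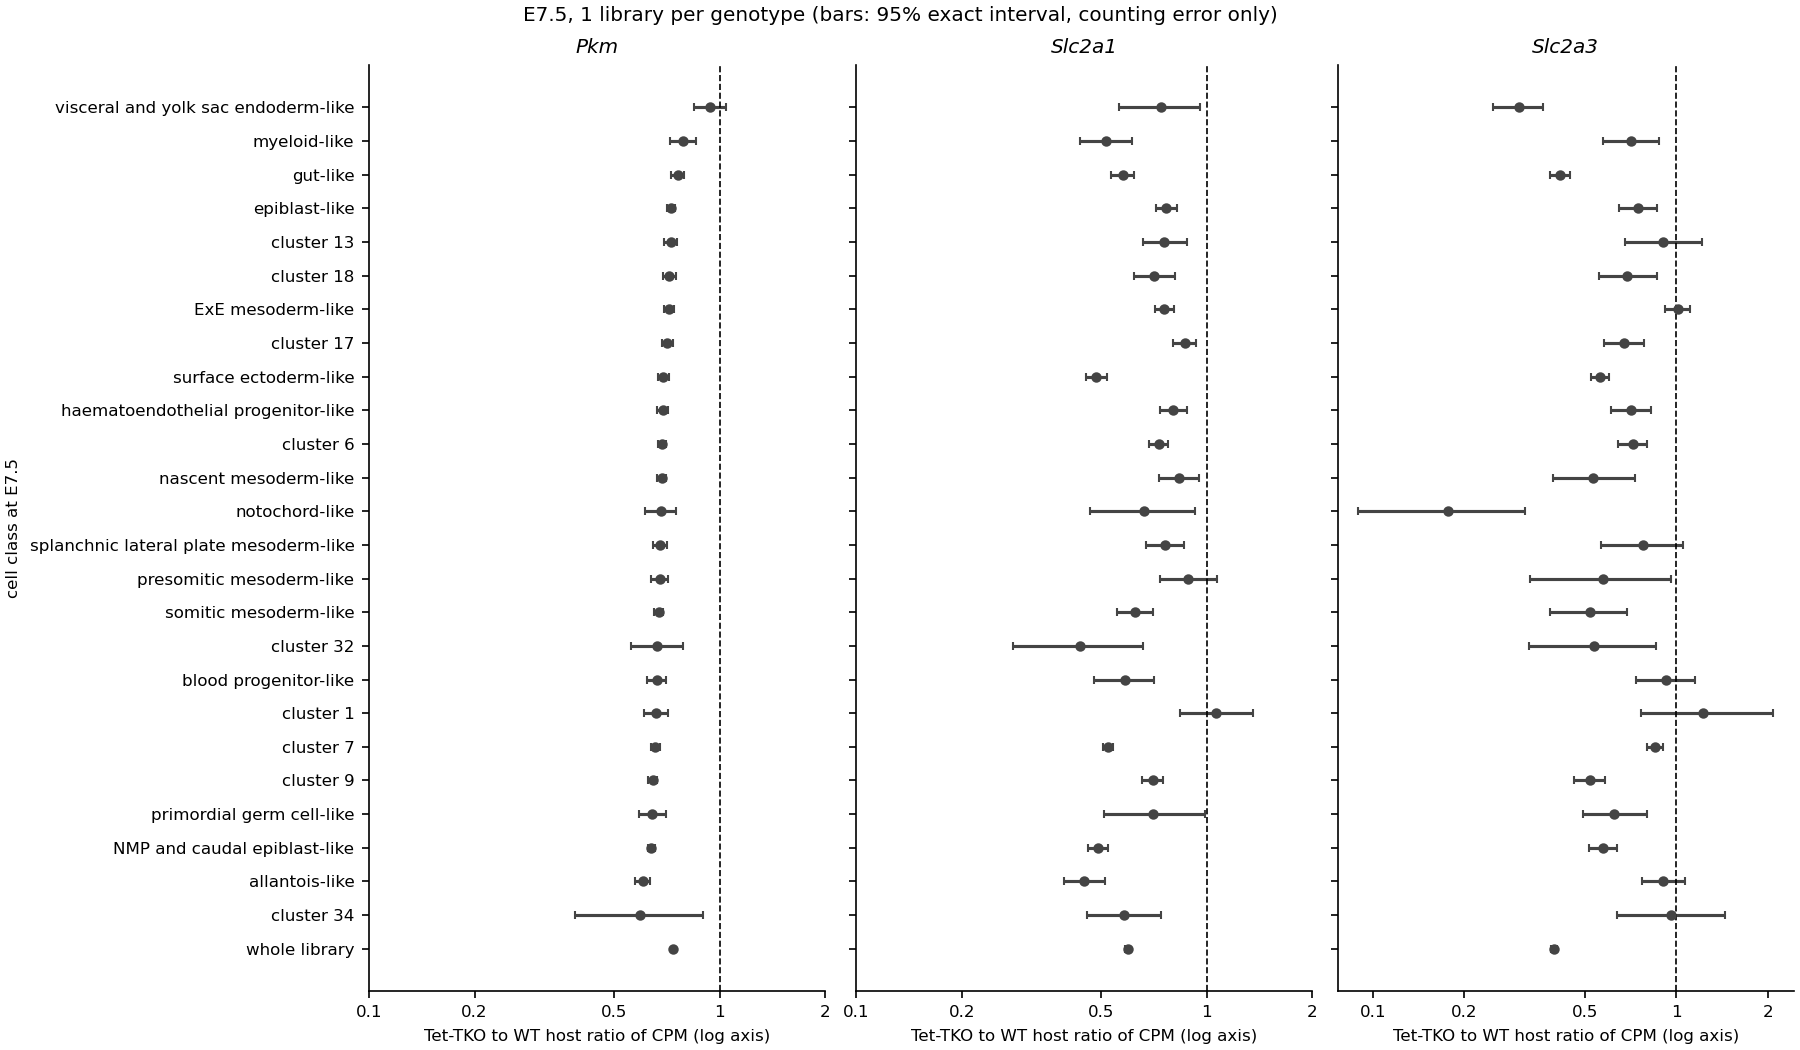
Ratio of Tet-TKO to WT host CPM for Pkm, Slc2a1 and Slc2a3 in 25 classes of E7.5 with exact 95% intervals, which cover counting error only; the line marks a ratio of 1. All Pkm ratios lie between 0.591 and 0.939, and Slc2a3 spreads from 0.177 to 1.22.

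Most of the other enzymes were not lower in the whole E7.5 Tet-TKO library. Whole-library Ldha was 3938 CPM in Tet-TKO and 3281 CPM in WT host, a ratio of 1.20, and the Pgk1 ratio was 1.15 with 1569 against 1359 CPM. Aldoa had a ratio of 1.11 and Eno1 and Pfkl one of 1.06, although Pfkl had a median of 0.994 within classes, with intervals below 1 in 5 of 25 and above 1 in 2. Gpi1 was lower, at 273 against 370 CPM (0.736), and Hk2 had 54.8 against 57.0 CPM (0.960). Within classes the Gpi1 ratio had a median of 0.918, and its interval was below 1 in 10 of 25 classes. ExE ectoderm-like cells, in which Gpi1 was high at E8.5, made up 25.7% of the WT host library and 0.109% of the Tet-TKO library. The Hk2 ratio had a median of 0.796 within classes, with the interval below 1 in 7 of 25 and above 1 in 1. Aldoa, Pgk1 and Ldha each had intervals above 1 in 16 classes and Eno1 in 13. The enzyme differences that pointed down at both stages were those of Pkm and Gpi1, of which Pkm passed a test at E8.5. Ldha pointed up at E7.5. At E8.5 its log2 fold change over whole libraries was -0.20 and was not called. Its Tet-TKO libraries there ran from 2554 to 3556 CPM, from below to above both host libraries (3296 and 3507 CPM). Ldha thus had no direction common to the E8.5 Tet-TKO libraries.

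Between the stages, no member was called in whole libraries, with genotype as a term in edgeR, although 18.9% of 21257 genes were. No member had an unadjusted p under 0.05, and DESeq2 also called 0. The largest difference was that of Slc2a3, which was 0.43 ± 0.21 (SE) log2 units higher at E8.5 (edgeR adjusted p = 0.20). It was called without WT host 2 of E8.5 (0.60, adjusted p = 0.0307) and without erythroid-like and extraembryonic-like cells (0.53, adjusted p = 0.0406). Hk2 was called when Tet-TKO libraries 3 and 4 were left out (0.15, adjusted p = 0.0472). In these fits, in the order given, 13%, 20.8% and 31.5% of all genes were called. The median of the members was -0.10 against 0.04 over all genes. Extraembryonic-like cells, where left out, were ExE ectoderm-like, visceral and yolk sac endoderm-like and parietal endoderm-like cells. Cluster 3 of E8.5 and ExE mesoderm-like, mesenchyme-like and allantois-like cells were kept in.

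Of 124 other genes of glucose and energy metabolism, 118 could be tested over whole E8.5 libraries, and 17 (14.4%) were called against 10.5% of all genes, 15 lower and 2 higher in Tet-TKO. With the 25 classes weighted equally, 16 of these 17 differences were smaller on the same log2(CPM + 5) scale. Those classes leave out erythroid-like, visceral and yolk sac endoderm-like and ExE ectoderm-like cells and cluster 3. The smaller differences therefore do not separate equal weighting from the loss of these cells. Other glycolytic enzymes were called lower in 4 of 15, and 3 of them are described. Hk1, another hexokinase, had 4.61 to 6.80 CPM in Tet-TKO and 12.9 and 15.4 CPM in WT host (log2 fold change -1.39, edgeR adjusted p = 0.00347). On the log2(CPM + 5) scale its difference was -0.83 over whole libraries and -0.20 with classes weighted equally. Bpgm, the bisphosphoglycerate mutase of red cells, had 24.2 to 32.1 against 36.3 and 52.3 CPM (-0.73, adjusted p = 0.0343), and its difference on that scale went from -0.54 to -0.11. Pklr, the pyruvate kinase of liver and red cells, had 0.00813 to 0.136 against 1.35 and 1.92 CPM.

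Of 6 genes of lactate and pyruvate transport, 3 were lower, namely the mitochondrial pyruvate carrier genes Mpc1 (log2 fold change -0.89, edgeR adjusted p = 0.0202) and Mpc2 (-0.84, adjusted p = 0.0173) and the monocarboxylate transporter Slc16a1, with 53.3 to 77.2 against 187 and 101 CPM (-1.21, adjusted p = 0.0264). On the log2(CPM + 5) scale the differences of Mpc1, Mpc2 and Slc16a1 were -0.63, -0.69 and -1.03 over whole libraries and -0.02, -0.26 and -0.39 with classes weighted equally. Flux regulators were lower in 2 of 11. Pfkfb4, whose kinase activity makes an activator of phosphofructokinase, had 2.48 to 2.81 against 9.11 and 11.8 CPM (-2.05, edgeR adjusted p = 0.00147). Pdk1, which switches off pyruvate dehydrogenase, had 27.5 to 28.0 against 37.2 and 38.5 CPM (-0.53, edgeR adjusted p = 0.0242). The difference of Pfkfb4 on the log2(CPM + 5) scale was -1.0 over whole libraries and 0.01 with classes weighted equally, and that of Pdk1 was -0.39 and -0.25. The ranges did not overlap for any gene of these lists that was called. The calls were made on the same libraries, so this adds no support. Over all genes, called or not, ranges did not overlap for 17.9% with Tet-TKO below and for 23.1% with Tet-TKO above.

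Pentose phosphate genes were lower in 2 of 7 (Rpia, log2 fold change -1.37, and Rpe, -0.43, with class-balanced differences of -0.06 and -0.09) and other hexose transporters in 1 of 7, Slc2a2, at 0 to 0.723 CPM in Tet-TKO against 30.8 and 8.53 CPM. On the log2(CPM + 5) scale the Slc2a2 difference was -2.06 over whole libraries and -0.12 with classes weighted equally. Of 20 genes of pyruvate dehydrogenase and the TCA cycle, 1 was lower (Pdha1, -0.33). Of 12 genes of gluconeogenesis and glycogen, Pygl was lower (-2.12) and Ugp2 higher (0.43). Of 17 hypoxia response genes, Pdk1 and Ndufa4l2 (-2.39) were lower and Hif1a, which encodes the regulated subunit of hypoxia-inducible factor 1, was higher, with 98.1 to 124 against 77.1 and 70.1 CPM (0.49, edgeR adjusted p = 0.0202). None of 4 Myc family genes was called by edgeR or DESeq2, and none had an unadjusted p under 0.05. Of 20 respiratory chain genes edgeR called 0, 5 had an unadjusted p under 0.05, and DESeq2 called 1, Ndufs1. With classes weighted equally, 2 of the 118 genes were called lower by limma, Pygl (-0.60, adjusted p = 0.0242) and Ndufa4l2 (-1.73, adjusted p = 0.0285), near the 1.49% of all genes. Without erythroid-like and extraembryonic-like cells, 10 of the other pathway genes were called over whole libraries in place of 17. That fit kept cluster 3, whose erythroid markers were high, and mesenchyme-like and allantois-like cells. The share over all genes was 5.84% in place of 10.5%.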

How the data were processed

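The 10 genes, the lists of other genes and the tests were chosen with earlier results of these data known. Cells came from Tet-TKO chimaeras at E7.5 and E8.5, in 8 libraries whose groups were read from the labels. The deposited values are raw counts of UMIs for each gene in each barcode, which the authors made with Cell Ranger from reads aligned to mm10 with Ensembl gene models of GRCm38 and the tdTomato sequence. The software version in the matrix headers is 3.1.0, and the counts were not normalised. The filter of the study was applied, which keeps cells of 1500 UMIs or more whose mitochondrial share is up to 30% and ribosomal share up to 35%. Doublets called by Scrublet (scanpy 1.11.5) were removed only in an alternative.

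Cells of each stage were clustered with leidenalg 0.10.2 on 2500 variable genes, 50 principal components, 20 mutual nearest neighbours between libraries, 15 graph neighbours and a Leiden resolution of 2. The 10 genes were left out of the clustering. A cluster was named where at least 3 markers were raised by a log2 of 1 or more over other clusters, with a lead of 0.2 over the next name. The mean score of the markers also had to reach 1, and no other class could have more markers among the 10 leading genes. Some clusters of few UMIs also stayed unnamed. UMIs were summed per library, and within classes wherever a library had 10 cells or more. The sums were tested with edgeR 4.0.16 (filterByExpr, TMM factors from 0.934 to 1.14 over all libraries, quasi-likelihood F test) and adjusted by Benjamini-Hochberg over all genes of a fit. A call is an adjusted p under 0.05, and the rule of the study (adjusted p 0.01 and log2 fold 1) was an alternative. Class-balanced levels, the mean of log2(CPM + 5) over classes, and departures from them were tested with limma 3.58.1. Alternatives included DESeq2 1.42.0, other size factors, no filter, each library left out, a replicate block and other groupings of cells. The fits were tested on simulated counts. Depth ran from 65082949 to 136773098 UMIs per library, and 0.404% of barcodes at most were shared between libraries. Of the listed genes, Ero1a was not analysed. Other genes were named if called, up to 4 per list and test, and some genes are not reported here. Gene positions are those of GENCODE M21.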

Additional observations from a re-analysis of the deposited data

Results flagged for a closer look

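Eno1 in the whole E8.5 library of Tet-TKO 3 stood at 1321 CPM, below 1565, 1590 and 1593 CPM in the other Tet-TKO libraries. The gap to the nearest library was 0.895 of the range of the group, above Dixon's 95% critical value for 4 samples. Of 20 groups of 4 libraries, 1 was marked in this way, and chance marks about 1 in 20. Tet-TKO 4, its pair by overall profile, was not low.

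Slc2a3 was called in opposite directions in different cell classes of E8.5, with p-values adjusted within each class. Adjusted over the tests of all classes together, the higher call in cluster 3 was lost (edgeR adjusted p = 0.0784). The lower calls in cluster 39 (0.00635) and mesenchyme-like cells (0.00783) were kept. It was higher in Tet-TKO in cluster 3 (log2 fold change 0.65) and lower in cluster 39 (-1.51) and in mesenchyme-like cells (-1.76), and in each class every Tet-TKO library lay on the same side of both host libraries. The difference between cluster 3 and the other classes was not tested, because Tet-TKO 4 had fewer than 10 cells there. Relative to the mean of other classes, neither the mesenchyme-like difference (limma adjusted p = 0.0586) nor that of cluster 39 (0.176) was called, and inside the 2 mesenchyme-like clusters Slc2a3 was not called either (edgeR adjusted p = 0.524 and 0.0523). In host cells Slc2a3 was at 28.3 and 26.4 CPM in cluster 3, the lowest of 34 classes, and at 490 and 591 CPM in mesenchyme-like cells.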

How the results depend on the processing

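Each result was recomputed under the alternatives, and all counts below are at an adjusted p of 0.05 unless stated. Of the values of single genes, 505 kept direction and side of the threshold, 76 kept direction but lost the call, 8 gained a call and 34 changed sign. The cause of these changes was not tested.

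Of members called over whole E8.5 libraries (1), size factors from DESeq2, testing without the low-count filter, Tet-TKO libraries summed in pairs and the rule of the study gave 0, Tet-TKO libraries 3 and 4 left out gave 3, and leaving out single libraries gave 0 to 1. Of stage (0), leaving out single libraries gave 0 to 1, and leaving out erythroid-like and extraembryonic-like cells, or Tet-TKO libraries 3 and 4, gave 1. Of the 17 other pathway genes, DESeq2 gave 26, libraries summed in pairs 7, no erythroid-like and extraembryonic-like cells 10, libraries 3 and 4 left out 41, the rule of the study 6, and leaving out single libraries 6 to 14. Of the 13 gene and class pairs, DESeq2 gave 24, no filter 34, libraries summed in pairs 5, libraries 3 and 4 left out 66 (where 6.37% of all tests were called), a Leiden resolution of 1 gave 7, single clusters 21, the rule of the study 4, and leaving out single libraries 1 to 21. Of class-balanced levels (1), libraries summed in pairs and TMM library sizes gave 0, classes weighted by WT host share 2, and leaving out single libraries 0 to 1. No departure was called in any alternative. Over all genes of whole E8.5 libraries, 15.1% were called by DESeq2 and 2.72% with libraries summed in pairs. The share was 5.84% without erythroid-like and extraembryonic-like cells and 22.2% without libraries 3 and 4, against 10.5% in the main fit. Over all gene and class tests, 1.41% were called by DESeq2, 2.02% with no filter and 1.06% with libraries summed in pairs. A Leiden resolution of 1 gave 1.38% and single clusters 1.49%, against 1.5% in the main fit.

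The labels do not say that replicate numbers mark shared pools, and Tet-TKO and WT host libraries of number 1 and of number 2 correlated at 0.316 and -0.043 in their deviations, so the replicate block is only an alternative. The replicate block drops Tet-TKO 3 and 4, which share no number with a host library, and gave 4 members over whole libraries (where 31.8% of all genes were called), 59 other pathway genes, 117 gene and class pairs (10.1% of all tests) and 0 members in class-balanced levels. Signs that turned under the replicate block were those of whole-library Aldoa (0.062), Pgk1 (0.16) and Ldha (0.073), and of class-balanced Hk2 (-0.13), Aldoa (0.0040) and Pgk1 (0.050).

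With libraries 3 and 4 left out, the signs of whole-library Aldoa (0.065), Pgk1 (0.16) and Ldha (0.075) and of class-balanced Hk2 (-0.13), Aldoa (0.0040) and Pgk1 (0.050) turned. Other signs that turned were of log2 values near 0. Whole-library Pfkl was -0.019, -0.016 and -0.027 without Tet-TKO 1, Tet-TKO 2 and WT host 1 (up to 0.056 without other single libraries) and -0.088 without erythroid-like and extraembryonic-like cells. Whole-library Pgk1 was 0.042, 0.060 and 0.0048 without Tet-TKO 3, Tet-TKO 4 and WT host 1 (down to -0.078 without others), 0.0010 with libraries summed in pairs and 0.00082 in tdTomato-matched cells. For stage, Gpi1 was 0.0098 without erythroid-like and extraembryonic-like cells, Pfkl, Pgk1 and Ldha were 0.023, 0.027 and 0.085 without the E7.5 Tet-TKO library and -0.14, -0.29 and -0.48 without the E7.5 WT host library, and Eno1 was -0.0025 in DESeq2, -0.00024 with its size factors, and -0.0066 and -0.0043 without Tet-TKO 1 and 2 (up to 0.080 without others). Class-balanced Hk2 was -0.018 without Tet-TKO 4 (up to 0.20 without others), and Eno1 was -0.066 with TMM library sizes and -0.017, -0.016 and -0.034 without Tet-TKO 1, Tet-TKO 2 and WT host 2 (up to 0.087 without others).

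Precision is limited by 2 WT host libraries at E8.5, 1 library per genotype at E7.5 and the unknown independence of the Tet-TKO library pairs. Each lone library left in a group is assumed to vary like the others.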

Other observations

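Among 5443 genes outside the lists with at least 20 CPM on average, those whose WT host level over 34 classes of E8.5 was most like the mean of the 10 members were Gltp (Pearson r = 0.78), Sox2 (0.77), Sox3 (0.77), Stmn2 (0.76), Nampt (0.74) and Anapc13 (0.74). Sox2 and Sox3 encode transcription factors of neural progenitors and Stmn2 a microtubule regulator of neurons. The mean used log2 levels centred per gene but not scaled, so Slc2a3 and Slc2a1, with the widest ranges, weigh most in it. These values are across classes that share 2 libraries and are a description.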
